A study of Mus musculus with 6 samples.

Results

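Heme degradation and iron handling were examined in tumor-associated macrophages (TAMs) through 10 genes, picked by symbol out of the 39179 genes of the deposited count table. They were Hmox1, Blvra and Blvrb (heme and bile pigment enzymes), Slc40a1, Tfrc and Slc11a1 (iron transport), Fth1 and Ftl1 (iron storage), and Nfe2l2 and Gclm (the oxidative stress response linked to heme oxygenase). The symbols were not chosen by a threshold on these values, but earlier results of the same data were known when they were listed. The macrophages came from tumors of a BRAF-mutant mouse melanoma cell line implanted in C57BL/6 hosts that were 8 weeks old. In the Ptgs-competent group the tumor cells carried functional Ptgs1 and Ptgs2, the genes of the prostaglandin-producing enzymes COX-1 and COX-2. In the Ptgs-deficient group a CRISPR-edited derivative of the same line lacked both genes. Because the edit was in the tumor cells, the sorted macrophages carried the host genotype in both groups, and the deficient arm rests on edited cells of a single parental line. Each group had 3 libraries, and each library was a pool of tumors, so the spread between libraries is that between pools and not between single mice. Live cells positive for CD45, CD11b and F4/80, negative for NK1.1 and Ly6G, and negative or dim for Ly6C had been sorted. The comparison asked how loss of cyclooxygenase in the tumor cells was accompanied by changes in the macrophages.

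Macrophages take up senescent red cells and hemoglobin, and heme oxygenase splits the released heme into biliverdin, carbon monoxide and ferrous iron. Biliverdin reductases turn biliverdin into bilirubin, ferritin stores the iron, and ferroportin (Slc40a1) returns it to the extracellular fluid. Hmox1, ferroportin and ferritin genes are classical targets of NRF2 (Nfe2l2), and the heme-sensing repressor BACH1 opposes NRF2 at such genes. Iron also acts after transcription: the iron regulatory proteins IRP1 (Aco1) and IRP2 (Ireb2) bind a hairpin in the transcript, the iron-responsive element. When iron is scarce, binding near the start of ferritin and ferroportin transcripts blocks their translation, and binding at the end of the Tfrc transcript protects it from decay. A transcript count can therefore carry the effect on Tfrc but not the effect on translation of ferritin or ferroportin.

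The iron-responsive elements are shown here because they separate the members by how iron is known to act on them. A search of the transcripts of 21901 protein-coding genes of the GRCm38 mouse assembly looked, on the transcript strand, for a C bulge, a 5-base arm, the loop CAGTGN and a 5-base arm that pairs with the first, with G-U pairs allowed. The pattern was found in 294 genes (1.34%), counting any transcript of a gene. Among the 10 members, where only the main transcript of each was read, it was found in 4. A match is a description of sequence and not evidence of binding. The loop is in capitals, sequences run 5′ to 3′ on the transcript strand, and each is written as DNA.
Slc40a1, 5′ UTR, chr1:45925465-45925493, minus strand: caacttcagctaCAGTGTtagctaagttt
Fth1, 5′ UTR, chr19:9982732-9982760, plus strand: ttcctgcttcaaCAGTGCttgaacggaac
Ftl1, 5′ UTR, chr7:45459779-45459807, minus strand: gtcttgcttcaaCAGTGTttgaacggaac
Tfrc, 3′ UTR, chr16:32631219-32631247, plus strand: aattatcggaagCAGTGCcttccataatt
Tfrc, 3′ UTR, chr16:32631598-32631626, plus strand: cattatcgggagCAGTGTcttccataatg
Tfrc, 3′ UTR, chr16:32631663-32631691, plus strand: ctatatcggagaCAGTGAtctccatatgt
Tfrc, 3′ UTR, chr16:32631710-32631738, plus strand: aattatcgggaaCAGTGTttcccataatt
Slc40a1, Fth1 and Ftl1 each held a single match, in the 5′ UTR, and Tfrc held 4, all in the 3′ UTR.

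The libraries held 4431184 to 8760679 counts. A count of 3 corresponded to 0.342 to 0.677 CPM, the count scaled to a common library total. Of 10 macrophage markers, 9 had a row in the table and all 9 were detected, and their summed level was 4446 CPM in Ptgs-competent replicate 3 against 11073 to 14597 CPM in the other 5 libraries. That replicate also had the smallest total. Values without it are therefore given where they change the reading of a result. The summed tumor cell list did not overlap between the groups, at 237, 346 and 1007 CPM in Ptgs-competent replicates 1, 2 and 3 against 33.2 to 62.3 CPM in the Ptgs-deficient group, although 7 of its 12 genes, the melanocyte genes Tyr, Tyrp1, Dct, Pmel and Mlana among them, were at 0 in every library. Of the 5 detected genes, Sparc, Fermt2, Sdpr and Prkg2 were higher in every Ptgs-competent library, the last 3 at 0.238 CPM or less in every Ptgs-deficient one, and Mitf lay the other way (1.91, 0 and 0.647 CPM against 10.6, 44.3 and 18.2 CPM). Globin transcripts, which bear on heme, were summed over the genes measured. The summed level of 4 globin genes was 698, 626 and 225 CPM across Ptgs-competent TAMs, against 18.2, 125 and 119 CPM across Ptgs-deficient TAMs, with no overlap. The erythroid markers Alas2, Slc4a1 and Car1 had no count in any library. Other lists that were higher in every Ptgs-competent library were the platelet list (5810 to 11822 CPM against 2618 to 3249 CPM), most of it Pf4 and with Gp1bb and Gp9 at 0 throughout, and the fibroblast (144 to 349 against 15.9 to 51.2 CPM), endothelial (92.9 to 197 against 22.3 to 65.1 CPM, Cdh5 at 0) and neutrophil lists (598 to 691 against 405 to 503 CPM, Ly6g at 0). The neutrophil list members S100a8 and S100a9 were higher in every Ptgs-competent library, whereas Retnlg was higher in every Ptgs-deficient library (20.2, 59.9 and 16.2 CPM against 123, 114 and 180.2 CPM). Lists that were lower there were the tissue-resident macrophage list (3015 to 8439 against 12456 to 13457 CPM) and the monocyte list (965 to 2481 against 5138 to 6370 CPM), most of the latter F13a1, while its member Vcan lay the other way (47.6 against 5.72 CPM). Cd5l, a tissue-resident macrophage marker, had a mean of 0.269 CPM in Ptgs-competent and 216 CPM in Ptgs-deficient TAMs. Fewer cells of a type and less RNA per cell cannot be told apart in such bulk libraries. The part of these cell types in the results below was not tested.

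All 10 members passed the filter on low counts, and none was called by the edgeR quasi-likelihood test, where a call needed an adjusted p no higher than 0.05 together with a log2 fold change of 1.5 or more either way (0.216% of the 8793 genes tested were called). At an unadjusted p under 0.05 (8.83% of all genes), 2 members were higher in Ptgs-deficient TAMs, Ftl1 and Slc11a1, and 1 was lower, Hmox1 (background 5.00% higher and 3.82% lower). The levels of the groups did not overlap for 4 members, against 19.0% of all genes tested: Ftl1 and Slc11a1 were higher in every Ptgs-deficient library, and Hmox1 and Slc40a1 were lower in every one. With RLE size factors 3 members remained apart, because Ftl1 then overlapped, and the share of all genes was not computed. The median log2 fold change of the members, Ptgs-deficient over Ptgs-competent, was 0.27, and that of all genes tested was 0.018. The members thus did not move together: 6 fitted fold changes were above 0 and 4 below. The likelihood ratio test of edgeR (2.74% of genes called), DESeq2 (3.73%) and the fit without a filter (1.89%) each called 1 member, Hmox1, as did a fit with the replicate number as a block (0.876%). Voom with quality weights in limma (1.40%) called 2 members, Hmox1 and Ftl1. No member was called with RLE size factors (0.216%), upper quartile scaling (0.227%), library totals (0.239%) or the stricter filter (0.238%). At an unadjusted p under 0.05, DESeq2 had 4 members (11.3% of genes) and limma voom 5 (12.5%).

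With single libraries left out, both the members' counts and the background moved. At an unadjusted edgeR p under 0.05 there were 3, 3 and 4 members without Ptgs-competent replicate 1, 2 or 3 (12.9%, 8.85% and 8.86% of genes), and 3, 2 and 1 without Ptgs-deficient replicate 1, 2 or 3 (9.66%, 6.72% and 6.74%). Groups that did not overlap, which are commoner with fewer libraries, numbered 4, 7 and 6 members in the first set (34.6%, 29.1% and 30.0% of genes) and 5, 4 and 5 in the other (29.3%, 25.6% and 25.1%). These member counts used scaling factors refitted to the remaining libraries, whereas the shares kept the factors of all 6 libraries.

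**Figure D1:**
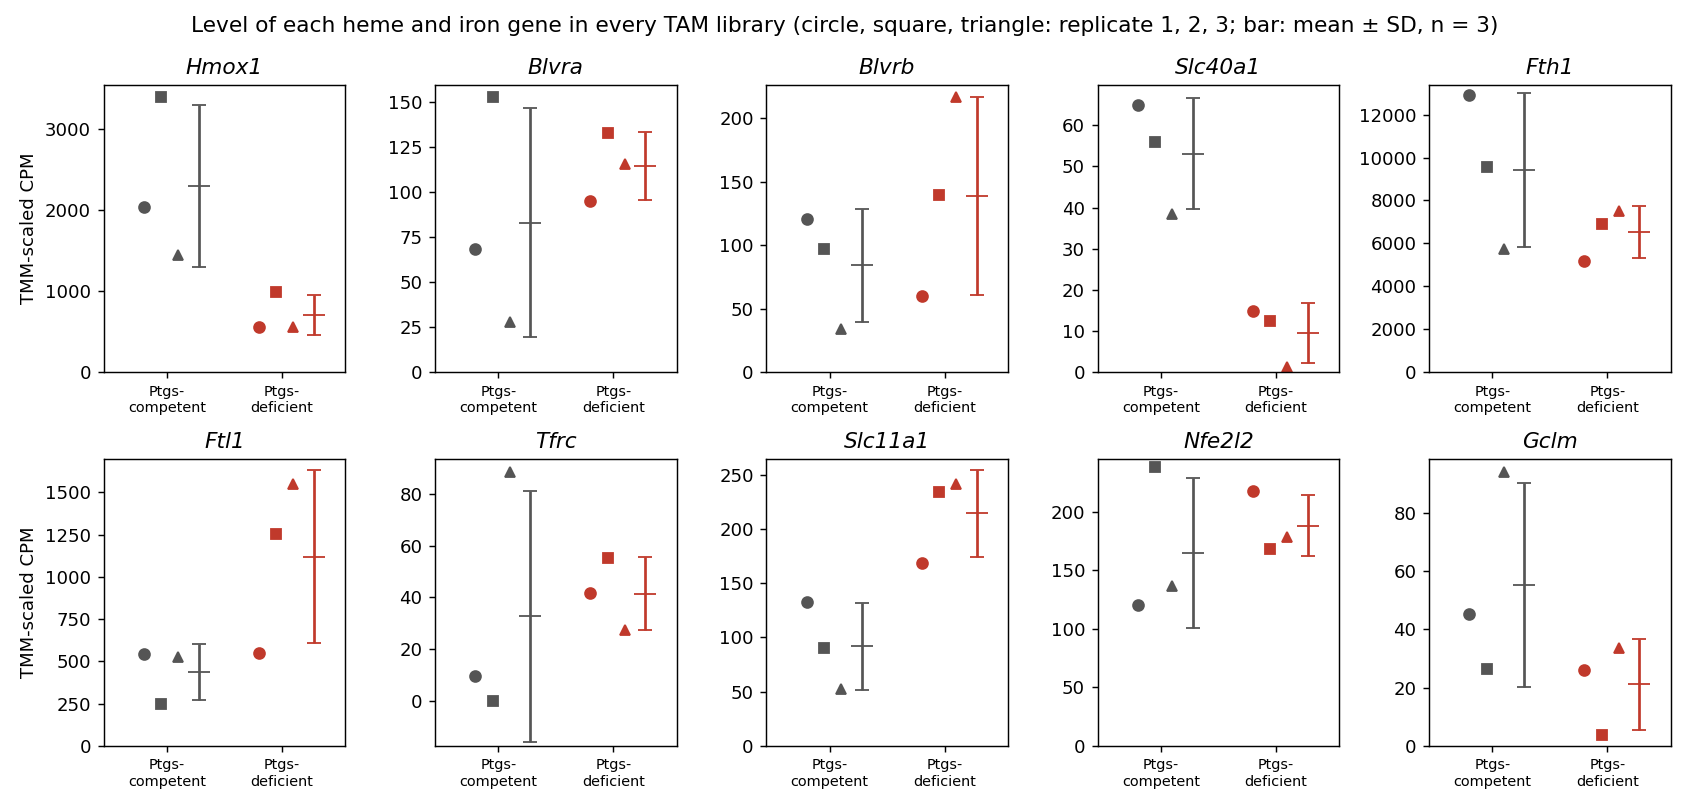
Level of each of the 10 genes, in TMM-scaled CPM on a linear axis of its own, in the 3 Ptgs-competent and 3 Ptgs-deficient TAM libraries. Symbols mark replicates and bars the mean ± SD (n = 3), and the panels of Hmox1, Slc40a1, Ftl1 and Slc11a1 are the ones in which no library of one group reaches into the other.

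Heme oxygenase 1 (Hmox1, ENSMUSG00000005413, chromosome 8, 75093621 to 75100589, plus strand), the inducible enzyme that opens the heme ring, was among the most abundant transcripts of Ptgs-competent TAMs and was lower in every Ptgs-deficient library. It stood at 2045, 3403 and 1453 CPM in Ptgs-competent replicates 1, 2 and 3 and at 561, 995 and 558 CPM in Ptgs-deficient replicates 1, 2 and 3. The lowest Ptgs-competent library lay above the highest Ptgs-deficient one. Ranked by level among all genes of a library, it was 47th, 22nd and 66th across Ptgs-competent TAMs, against 260th, 159th and 296th across Ptgs-deficient TAMs. The group means were 2300.1 ± 999.7 CPM and 705 ± 251 CPM (SD, n = 3 each), a ratio of 3.26. The log2 fold change was -1.71 ± 0.40 (SE, 95% interval -2.60 to -0.81), with an unadjusted p of 0.00169 and an adjusted p of 0.158 in the edgeR quasi-likelihood test. Leaving out any single library kept the log2 fold change between -2.04 and -1.31 and the unadjusted p between 3.70e-04 and 0.0151, and adjusted p ran from 0.0858 to 0.629. The adjusted p was 0.0214 with the edgeR likelihood ratio test, 2.22e-04 with DESeq2 and 0.00293 with limma voom, so the call depended on the test. Within the quasi-likelihood test of edgeR it also depended on the model, with an adjusted p of 3.52e-04 without a filter on low counts and 0.0474 with the replicate block.

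The constitutive isoenzyme and the reductases that act after heme oxygenase did not share that pattern. Hmox2, the constitutive heme oxygenase, was at 161, 111 and 6.25 CPM in Ptgs-competent and 81.7, 139 and 140.3 CPM in Ptgs-deficient TAMs, so that the groups overlapped (log2 fold change 0.37 ± 0.86, unadjusted p = 0.675 in edgeR). Biliverdin reductase A (Blvra, ENSMUSG00000001999, chromosome 2, 127070665 to 127097084, plus strand) makes the adult bilirubin isomer. Its levels were 68.5, 153 and 27.6 CPM across Ptgs-competent TAMs, against 95.1, 133 and 115 CPM across Ptgs-deficient TAMs. Ptgs-competent replicate 2 was the highest of all 6 and replicate 3 the lowest, and the groups overlapped. The log2 fold change was 0.46 ± 0.63 (95% interval -0.94 to 1.87, adjusted p = 0.9995 in edgeR) and was 0.11 without Ptgs-competent replicate 3 and 1.25 without Ptgs-competent replicate 2. Biliverdin reductase B (Blvrb, ENSMUSG00000040466, chromosome 7, 27447978 to 27466144, plus strand) reduces flavins and other biliverdin isomers. It stood at 121, 97.2 and 34.3 CPM in Ptgs-competent and 60.2, 139 and 217 CPM in Ptgs-deficient TAMs. Ptgs-deficient replicate 1 lay below 2 of the Ptgs-competent libraries, and the log2 fold change of 0.72 ± 0.63 had an interval of -0.67 to 2.12 (adjusted p = 0.9995 in edgeR), and it ran from 0.25 without Ptgs-deficient replicate 3 to 1.11 without Ptgs-deficient replicate 1.

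As a ratio within each library, which removes the scaling between libraries, Hmox1 stood further above Blvrb in Ptgs-competent TAMs. The log2 ratio of Hmox1 to Blvrb counts was 4.08, 5.13 and 5.40 across Ptgs-competent TAMs, against 3.22, 2.83 and 1.36 across Ptgs-deficient TAMs. The groups did not overlap, and the means were 4.87 ± 0.70 and 2.47 ± 0.98. The difference of -2.40 had a two-sided exact permutation p of 0.1, the smallest that 3 libraries against 3 can give.

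Ferroportin (Slc40a1, ENSMUSG00000025993, chromosome 1, 45908068 to 45926523, minus strand), the only known cellular iron exporter of vertebrates, showed the largest fitted decrease of the 10 members, with a wide error. Its raw counts were 407, 341 and 178 in Ptgs-competent and 81, 105 and 6 in Ptgs-deficient TAMs. Scaled, these were 64.9, 56.0 and 38.4 CPM against 14.8, 12.5 and 1.24 CPM. Every Ptgs-deficient library lay below every Ptgs-competent one, and Ptgs-deficient replicate 3 was close to the level that 3 counts give. Mean levels were 53.1 ± 13.5 and 9.51 ± 7.25 CPM, a ratio of 5.58. Its log2 fold change was -2.48 ± 1.26 (95% interval -5.27 to 0.32), which did not pass the test (unadjusted p = 0.0768, adjusted p = 0.704 in edgeR). Without single libraries it ran from -2.89 to -1.95, with unadjusted p from 0.0757 to 0.169. DESeq2 gave -2.52 (unadjusted p = 0.0241, adjusted p = 0.272) and limma voom -3.47 (unadjusted p = 0.0246, adjusted p = 0.305), neither of which is a call.

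The transferrin receptor (Tfrc, ENSMUSG00000022797, chromosome 16, 32608920 to 32632794, plus strand), which imports transferrin-bound iron, was too uneven among Ptgs-competent libraries to compare. Raw counts were 61, 0 and 410 in Ptgs-competent and 229, 464 and 132 in Ptgs-deficient TAMs, or 9.72, 0 and 88.4 CPM against 41.8, 55.3 and 27.3 CPM. The count of 0 in Ptgs-competent replicate 2 allows a level of up to 0.490 CPM by library total, whereas replicate 3 of that group was the highest of all 6 libraries. The coefficient of variation was 148% in Ptgs-competent and 33.7% in Ptgs-deficient libraries. A log2 fold change of 0.34 ± 1.64 (95% interval -3.31 to 3.99, adjusted p = 0.9995 in edgeR) was 3.12 without Ptgs-competent replicate 3, -0.084 without replicate 1 and -0.24 without replicate 2. With all 6 libraries, limma voom gave 3.41 and the replicate block 2.36.

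Within libraries, Slc40a1 stood higher relative to Tfrc in Ptgs-competent TAMs, by an amount that depended on single libraries. The log2 ratio of Slc40a1 to Tfrc counts, with 0.5 added to each, was 2.73, 9.42 and -1.20 across Ptgs-competent TAMs, against -1.49, -2.14 and -4.35 across Ptgs-deficient TAMs. The groups did not overlap, but Ptgs-competent replicate 3 lay only just above the highest Ptgs-deficient library. Means were 3.65 ± 5.37 and -2.66 ± 1.498, and the difference of -6.31 had an exact permutation p of 0.1, again the smallest possible. The value of 9.42 rests on the count of 0 for Tfrc, and with 5 added to each count the difference was -4.92. It was -3.42 without that library and -8.73 without Ptgs-competent replicate 3.

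**Figure D2:**
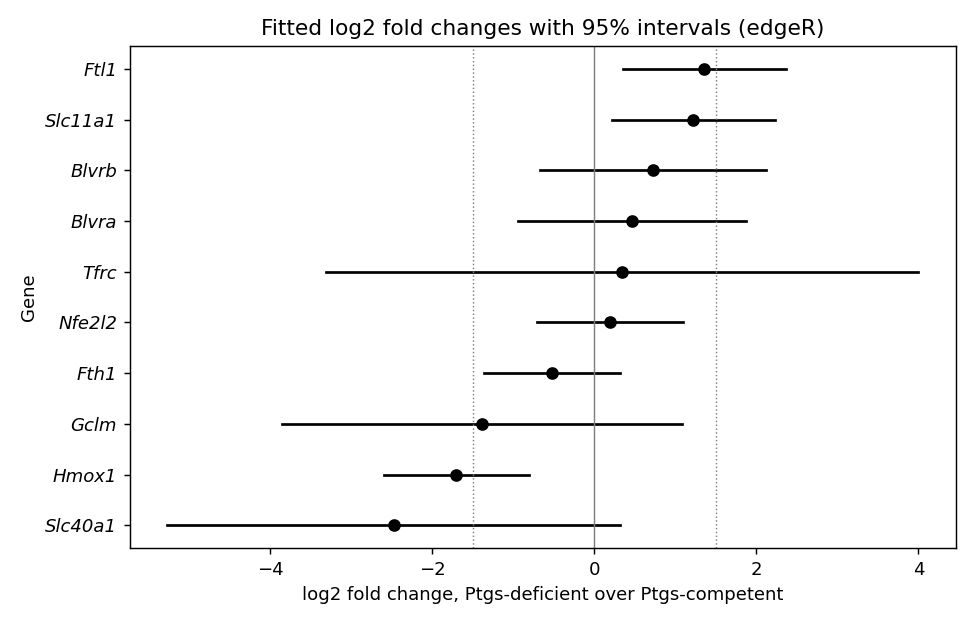
Log2 fold change of each of the 10 genes, Ptgs-deficient over Ptgs-competent, from the edgeR quasi-likelihood fit, with lines for the 95% interval. The intervals of Hmox1 (below 0) and of Ftl1 and Slc11a1 (above 0) do not cross 0, and those of Slc40a1 and Tfrc are the widest.

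The ferritin subunits differed from each other. The heavy chain (Fth1, ENSMUSG00000024661, chromosome 19, 9980598 to 9985098, plus strand) carries the ferroxidase activity that oxidizes iron for storage and was the most abundant member in every library, between the 3rd and the 15th gene by level. It stood at 12922, 9554 and 5753 CPM in Ptgs-competent and 5195, 6894 and 7530 CPM in Ptgs-deficient TAMs. Ptgs-competent replicates 1 and 2 were the highest of all, but replicate 3 lay among the Ptgs-deficient libraries. Fitted over all 6 libraries, the log2 fold change was -0.53 ± 0.38 (95% interval -1.36 to 0.31, unadjusted p = 0.193, adjusted p = 0.9500 in edgeR). Without Ptgs-competent replicate 3 it was -0.73, with an unadjusted edgeR p of 0.0277.

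The light chain (Ftl1, ENSMUSG00000050708, chromosome 7, 45457944 to 45459884, minus strand) has no ferroxidase site and supports mineral formation in the ferritin core. Its levels were 541, 245 and 525 CPM in Ptgs-competent and 551, 1255 and 1547 CPM in Ptgs-deficient TAMs. No library crossed over on this scale, but Ptgs-competent replicate 1 and Ptgs-deficient replicate 1 were nearly level, and with RLE size factors Ptgs-competent replicate 3 (561 CPM) lay above Ptgs-deficient replicate 1 (550.3 CPM). Means were 437 ± 167 and 1118 ± 512 CPM, a ratio of 2.56 in favor of Ptgs-deficient TAMs. The log2 fold change of 1.36 ± 0.45 (95% interval 0.35 to 2.36) had an unadjusted p of 0.0133 and an adjusted p of 0.346 in edgeR. Limma voom alone called it (log2 fold change 1.54, adjusted p = 0.0358). The median log2 fold change over all genes was 0.39 in that fit, against 0.018 in the main one, and a call needed 1.5. Without single libraries the log2 fold change ran from 1.05 to 1.70 and the unadjusted edgeR p from 0.00414 to 0.0636, the highest without Ptgs-deficient replicate 3.

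Reads of the light chain can be shared with its copies. In the last 500 bases of the Ftl1 transcript, stretches of 50 bases recur in 15 other genes, against 1 for Fth1 and 0 for Hmox1, Slc40a1 and Tfrc. The genes sharing them with Ftl1 held 6237 counts over the 6 libraries, against 28356 for Ftl1, and Gm10116 held most. With the 8 copies that had counts added to Ftl1, a sum made after seeing the data, levels were 603, 310 and 556 CPM against 632, 1788 and 1625 CPM. The groups still did not overlap, and the log2 fold change was 1.46 ± 0.44 (unadjusted p = 0.00759, adjusted p = 0.279 in edgeR).

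Heavy chain transcripts stood further above light chain transcripts in Ptgs-competent TAMs. The log2 ratio of Fth1 to Ftl1 counts was 4.58, 5.29 and 3.45 across Ptgs-competent TAMs, against 3.24, 2.46 and 2.28 across Ptgs-deficient TAMs. The groups did not overlap, with means of 4.44 ± 0.92 and 2.66 ± 0.51. The difference of -1.78 (exact permutation p = 0.1, the smallest possible) was -1.85 with the copies added to Ftl1. Because reads come from the 3′ end, a count does not grow with transcript length, but reads lost to copies would lower Ftl1, so the ratio is not one of ferritin subunits.

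**Figure D3:**
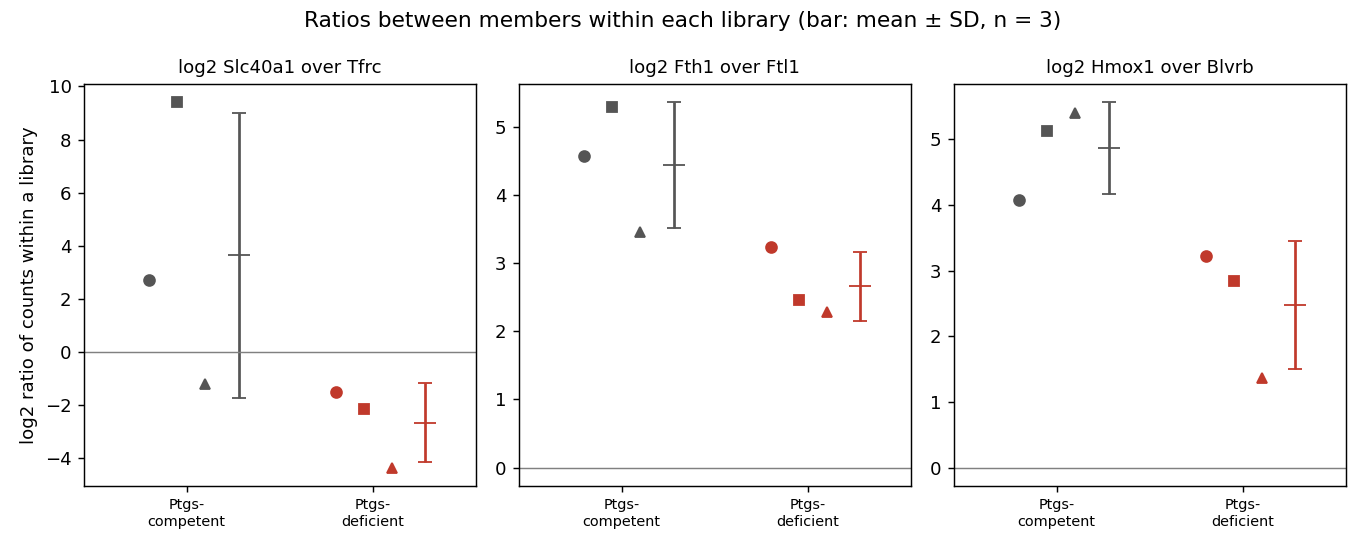
Log2 ratio of the counts of 2 members in each library, for Slc40a1 over Tfrc, Fth1 over Ftl1 and Hmox1 over Blvrb, with the mean ± SD (n = 3 per group). Each ratio is higher in every Ptgs-competent library than in any Ptgs-deficient one, with the narrowest gap for Slc40a1 over Tfrc (-1.20 against -1.49) and for Fth1 over Ftl1 (3.45 against 3.24).

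Slc11a1 (ENSMUSG00000026177, chromosome 1, 74375195 to 74386062, plus strand) encodes NRAMP1, which moves iron and manganese out of phagosomes in macrophages. It was higher in every Ptgs-deficient library, opposite in direction to Slc40a1. Levels were 133, 89.8 and 52.6 CPM in Ptgs-competent and 168, 234 and 241 CPM in Ptgs-deficient TAMs. The groups were separate, with Ptgs-deficient replicate 1 the nearest to the Ptgs-competent libraries. The means of 91.8 ± 40.2 and 214 ± 40.2 CPM gave a ratio of 2.34. The log2 fold change of 1.22 ± 0.45 (95% interval 0.21 to 2.23) had an unadjusted p of 0.0222 and an adjusted p of 0.379 in edgeR, and without single libraries the unadjusted p ran from 0.0112 to 0.0749, above 0.05 without Ptgs-deficient replicate 2 or 3. A stretch of 50 bases near the 3′ end of its transcript recurs in 53 other genes, so reads from that stretch could have been assigned elsewhere or dropped. The C57BL/6 strain is known to carry a defective Slc11a1 allele, so the transcript level says nothing of transport activity.

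The transcription factor NRF2 (Nfe2l2, ENSMUSG00000015839, chromosome 2, 75675513 to 75704641, minus strand) is controlled mainly by protein stability, and its transcript did not separate the groups. It stood at 120.0, 239 and 136 CPM in Ptgs-competent and 218, 168 and 178 CPM in Ptgs-deficient TAMs. Ptgs-competent replicate 2 was the highest library and replicate 1 the lowest. Its log2 fold change of 0.19 ± 0.40 had an interval of -0.71 to 1.09 (adjusted p = 0.9995 in edgeR). It was 0.56 without Ptgs-competent replicate 2 and 0.0091 without Ptgs-competent replicate 1. Keap1, the adaptor that targets NRF2 for degradation, was at 245, 239 and 81.5 CPM against 189.9, 166 and 174 CPM (log2 fold change -0.095 ± 0.46, unadjusted p = 0.841 in edgeR).

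Gclm (ENSMUSG00000028124, chromosome 3, 122245557 to 122270732, plus strand), the modifier subunit of glutamate-cysteine ligase in glutathione synthesis, is a standard NRF2 target. Its levels were 45.3, 26.3 and 94.2 CPM in Ptgs-competent and 26.1, 3.57 and 33.7 CPM in Ptgs-deficient TAMs. The groups overlapped, with Ptgs-competent replicate 3 the highest and Ptgs-deficient replicate 2 the lowest. Its log2 fold change was -1.39 ± 1.11 (95% interval -3.85 to 1.08, adjusted p = 0.992 in edgeR) and -0.72 without Ptgs-competent replicate 3. Gclc, the catalytic subunit of the same enzyme, had 74, 135 and 0 counts against 0, 37 and 0, too few to place.

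By mean level the members fell into a similar order in both groups, on the CPM scale of 3′ counts. Fth1 came first in each. Hmox1 was next in Ptgs-competent TAMs, ahead of Ftl1 in every library of that group, whereas in Ptgs-deficient TAMs the mean of Ftl1 (1118 CPM) was above that of Hmox1 (705 CPM) and the libraries of the genes overlapped. Nfe2l2, Slc11a1, Blvra and Blvrb followed at means of 82.9 to 165 CPM in Ptgs-competent and 114 to 214 CPM in Ptgs-deficient TAMs, and neighbors among them overlapped. Gclm, Slc40a1 and Tfrc were lowest, at means of 32.7 to 55.2 CPM and 9.51 to 41.5 CPM. The coefficient of variation was smaller in the Ptgs-deficient libraries for 6 of the 10 members.

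Genes whose level followed Hmox1 most closely over the 6 libraries, among 2985 genes with a mean of at least 50 CPM, were Ubqln1 (Pearson r of log2 CPM 0.98), Tlr13 (0.97), Ubash3b (0.97), Twistnb (0.96) and Baz2b (0.96). For Slc40a1 they were Cd63-ps (0.98), Htatsf1 (0.98), 2200002D01Rik (0.96), Sdc4 (0.96) and Bet1l (0.96). These values describe 6 libraries that share a difference between groups, and the genes were the highest out of many.

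The wider heme and iron list held 52 other genes, of which 50 had a row in the table and 38 were tested. None was called. At an unadjusted edgeR p under 0.05, 1 was higher (Cd163) and 1 lower (Slc48a1), with 17 fitted fold changes above 0 and 21 below. The median log2 fold change was -0.19, against 0.018 over all genes. Levels did not overlap for 5 genes on the higher side (Cd163, Bach1, Slc11a2, Pcbp1 and Slc25a28) and for 2 on the lower side (Slc48a1 and Hif1a). That is 18.4% of the genes tested, near the 19.0% of all genes, and the share at an unadjusted p under 0.05 was 5.26%, below the 8.83% of all genes.

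Genes that bring heme into the cell and sense it included those with the smallest p of the list. Cd163, the receptor for hemoglobin bound to haptoglobin, was at 147, 188 and 59.1 CPM in Ptgs-competent and 415, 305 and 348 CPM in Ptgs-deficient TAMs. Its groups were well apart, with a log2 fold change of 1.44 ± 0.45 (unadjusted p = 0.00979, adjusted p = 0.2998 in edgeR). Cd163 is also a tissue-resident macrophage marker, and others of that list lay the same way, with log2 fold changes of 2.48 for Folr2 and 3.81 for Lyve1, and with Timd4 at 0 in every Ptgs-competent library and 16.6 to 46.2 CPM in the Ptgs-deficient group. Vcam1, of the same list, had a log2 fold change of -1.06 with overlapping groups, and Vsig4 and Marco had counts in a single library each. The part of that cell type in the Cd163 value was not tested. Slc48a1, the transporter that releases heme from the phagolysosome, was at 379, 346 and 246 CPM against 215, 143 and 169.9 CPM (log2 fold change -0.88 ± 0.36, unadjusted p = 0.0331, adjusted p = 0.463 in edgeR). Bach1, the heme-sensing repressor of Hmox1, was at 54.5, 71.9 and 60.4 CPM against 96.0, 112 and 125 CPM, higher in every Ptgs-deficient library but with a log2 fold change of 0.84 ± 0.50 that did not pass the test (unadjusted p = 0.123 in edgeR). Lrp1, the receptor for heme bound to hemopexin, overlapped between the groups (log2 fold change -0.54 ± 0.37, unadjusted p = 0.172).

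Pcbp1, a chaperone that delivers iron to ferritin, was at 390.0, 279 and 243 CPM in Ptgs-competent and 490, 446 and 485 CPM in Ptgs-deficient TAMs (log2 fold change 0.64 ± 0.32, unadjusted p = 0.0724 in edgeR). Hif1a, the oxygen-regulated transcription factor subunit, was at 65.0, 85.2 and 104 CPM against 23.2, 51.4 and 22.8 CPM (log2 fold change -1.38 ± 0.70, unadjusted p = 0.0763 in edgeR). Neither gene overlapped between the groups. The transcripts of the proteins that bind the printed hairpins were sparse. Ireb2 had 103, 234 and 2 counts in Ptgs-competent and 0, 0 and 38 in Ptgs-deficient TAMs, and Aco1 had 0, 255 and 0 against 261, 209 and 39.

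Among 34 other NRF2 partners and targets, 33 had a row and 28 were tested, and none was called. None was higher and 1, Gstm1, was lower at an unadjusted edgeR p under 0.05, with 11 fitted fold changes above 0, 17 below and a median of -0.099. Gstm1, a glutathione transferase, was at 50.7, 128 and 76.1 CPM in Ptgs-competent and 26.6, 23.7 and 13.7 CPM in Ptgs-deficient TAMs (log2 fold change -1.99 ± 0.77, unadjusted p = 0.0275, adjusted p = 0.420 in edgeR). Its groups did not overlap, nor did those of Gsr and Ugdh on the same side or of Srxn1, Cbr3 and Ephx1 on the other. These make 21.4% of the list's tested genes, near the 19.0% of all genes, and the share at an unadjusted p under 0.05 was 3.57%, below 8.83%. Mafg, a small MAF partner of NRF2, was at 290.1, 228 and 172 CPM against 83.0, 186 and 85.5 CPM (log2 fold change -0.96 ± 0.45, unadjusted p = 0.0590). Cbr3, a carbonyl reductase, lay the other way, at 1.75, 0 and 0 CPM against 28.8, 38.1 and 16.6 CPM (log2 fold change 5.51 ± 2.57, unadjusted p = 0.0574). Ugdh, which makes UDP-glucuronate, was at 27.3, 32.5 and 132 CPM against 0, 15.7 and 7.45 CPM (log2 fold change -3.04 ± 1.62, unadjusted p = 0.0901). The pentose phosphate enzymes Taldo1 (-0.80 ± 0.42, unadjusted p = 0.0901) and Tkt (-0.58 ± 0.38, unadjusted p = 0.159) overlapped between the groups. Nqo1, the most used NRF2 marker, had no count in any library.

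**Figure D4:**
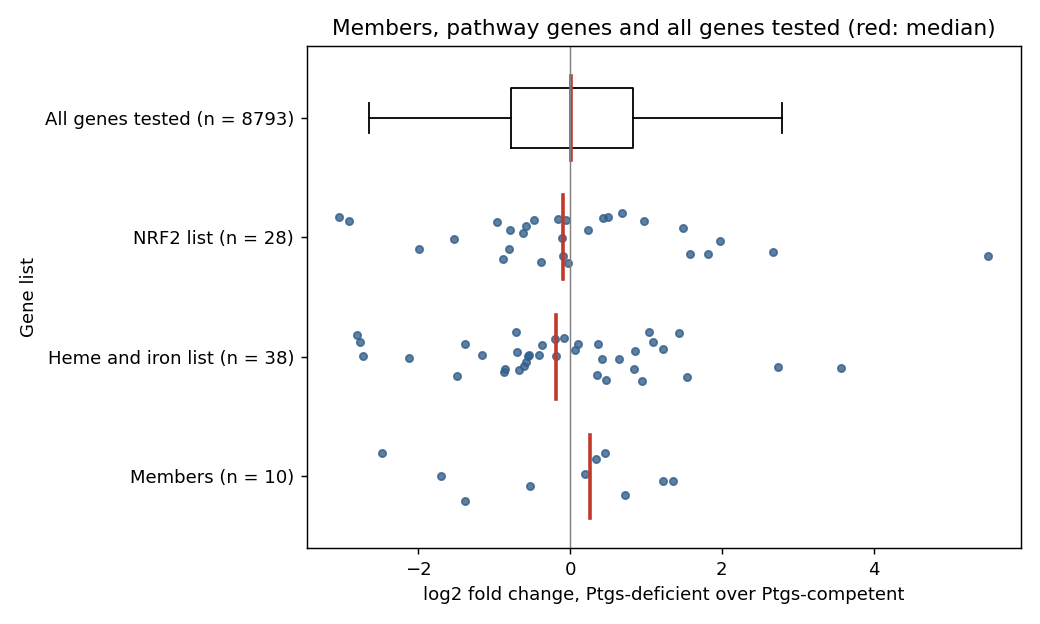
Log2 fold changes, Ptgs-deficient over Ptgs-competent, of the 10 members, of the 38 tested genes of the wider heme and iron list, of the 28 tested NRF2 partners and targets and of all 8793 genes tested, with a red line at each median. Points are single genes, the box over all genes spans the quartiles with whiskers from the 5th to the 95th percentile, and the medians are 0.27, -0.19, -0.099 and 0.018.

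The summed globin level, like Hmox1 and Slc40a1, was lower in every Ptgs-deficient library, but that sum was not tested. Hbb-bs, a beta globin gene, had a log2 fold change of -3.24 ± 1.39 (unadjusted p = 0.0418, adjusted p = 0.515 in edgeR). The other 3 globin genes did not pass at an unadjusted p under 0.05 (0.135 or higher in edgeR), and 1 of them overlapped between the groups. Ptgs-competent replicate 3 had the lowest globin sum and the lowest Hmox1 and Slc40a1 levels of its group. Across Ptgs-competent replicates 1, 2 and 3, Slc40a1 (64.9, 56.0 and 38.4 CPM) fell in the same order as the globin sum (698, 626 and 225 CPM). Ptgs-deficient replicate 2 had the highest globin sum (125 CPM) and the highest Hmox1 (995 CPM) of its group. Other values did not follow: Ptgs-deficient replicate 1 had the lowest globin sum of all 6 but the highest Slc40a1 of its group. Ptgs-competent replicate 1 had the highest globin sum but less Hmox1 than replicate 2. The part of globin-containing cells or of free RNA in the Hmox1 and Slc40a1 values was not tested. Without Ptgs-competent replicate 3, log2 fold changes were -1.89 for Hmox1, where edgeR gave its lowest unadjusted p of the 6 omissions, and -2.61 for Slc40a1.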

How the data were processed

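TAM libraries had been made from 800 pg of total RNA with the QuantSeq 3′ FWD kit, and no molecular identifiers were stated. The authors trimmed reads with BBDUK, fqtrim and cutadapt, aligned them with STAR to GRCm38 and deposited raw read counts per Ensembl gene. Versions, the strand used and how multi-mapped reads were treated are not given in the sources used here, so genes with copies or overlapping neighbors are uncertain. PCR copies cannot be told from separate molecules, and floors of 3 counts cover counting error only.

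All 6 libraries (4431184 to 8760679 counts) entered edgeR 4.0.16 under R 4.3.3: filterByExpr (minimum count 10, minimum total 15), TMM scaling, the two-sided quasi-likelihood test with group as the only term, and Benjamini-Hochberg adjustment over 8793 genes. Calls needed an adjusted p no higher than 0.05 together with a log2 fold change of 1.5 or more either way. For the SE, the size of each log2 fold change was divided by the root of its F statistic. CPM are TMM-scaled. Within-library ratios added 0.5 to each count and were compared by exact permutation. The script was tested on simulated data.

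The members and lists were chosen with earlier results of these data known. All members are named. From each wider list the 6 genes with the smallest p and a few genes of fixed role are named, and the others named here (those whose levels did not overlap, Nqo1 and the globin gene) were chosen after their values were seen. Alternatives were the edgeR likelihood ratio test, DESeq2 1.42.0, voom with quality weights in limma 3.58.1, other scalings and filters, a replicate block and leaving out each library. Gene positions and transcripts came from GENCODE M21 on GRCm38, a later annotation than the authors' one, in which 37607 of 39179 identifiers were found. Genes without a row in the table, Adgre1 among them, were not analysed here.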

Additional observations from a re-analysis of the deposited data

How the results depend on the processing

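Of 151 alternative values of the members' fold changes, 149 kept the main direction. The 2 that reversed were both of Tfrc, whose log2 fold change ran from -0.24 to 3.12 when single libraries were left out. With all 6 libraries it was 3.41 with limma voom and 2.36 with the replicate block, against 0.34 in the main fit. The number of members called, 0 in the quasi-likelihood test, was 1 with the likelihood ratio test, 1 with DESeq2, 1 without a filter, 1 with the replicate block and 2 with limma voom, and 0 with any single library left out. The number at an unadjusted p under 0.05 was 3 in the main test (8.83% of all genes), 5 with voom (12.5%) and 4 with DESeq2 (11.3%). With a library left out it was between 1 (without Ptgs-deficient replicate 3) and 4 (6.72% to 12.9% of all genes). The number whose groups did not overlap was 4 (19.0% of all genes). With a library left out it was between 4 and 7 (25.1% to 34.6% of all genes), and 7 without Ptgs-competent replicate 2 (29.1%). With RLE size factors it was 3, and the share of all genes was not computed. The cause was not tested. Pairing by replicate number was checked on each library's deviations from its group mean, gene by gene. These correlated between same-numbered libraries at -0.057, -0.028 and -0.016, and none correlated best with its own number. The best r with another number was only 0.010 to 0.046, so the check cannot settle whether the libraries were paired. The replicate block moved the calls over all genes from 19 to 77, and Hmox1 had a log2 fold change of -1.67 with an adjusted p of 0.0474 under it. The no-filter fit called 252 of 13368 genes, DESeq2 328, the likelihood ratio test 241 and voom 123, and leaving out single libraries gave 0 to 25. The median log2 fold change of all genes was 0.39 with voom, 0.26 with the block, 0.14 without Ptgs-competent replicate 1 and 0.13 without replicate 3, so fold changes there are read against those shifts. Ratios within a library gave an exact permutation p of 0.1 or more under every setting tried, and 0.1 is the smallest that 3 libraries against 3 allow. For the replicate block, the signs of 3 same-numbered differences were flipped. That gave a p of 0.25, which is the smallest such flips allow.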
